A study of Mus musculus with 2 samples.

Results

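NF-κB is a family of paired transcription factors that is held in the cytoplasm by inhibitor (IκB) proteins and released when antigen receptor, costimulatory or cytokine receptor signals lead to the breakdown of those inhibitors. Several of its target genes encode its own precursors and inhibitors, so that an NF-κB response also raises the transcripts that end it. In T cells it acts beside NFAT and AP-1 at cytokine genes, among them Il2. Described here are 9 of the 32285 genes in the deposited feature list, each matched by symbol to 1 row. They are the subunit genes Nfkb1, Nfkb2, Rel and Relb, the inhibitor or inhibitor-like genes Nfkbia, Nfkbid and Nfkbiz, and the feedback genes Tnfaip3 and Map3k8.

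The cells were mouse CD8 T cells from mesenteric lymph nodes (strain C57/B6N for both genotypes) that had been cultured with a commercial Th17 cytokine and antibody kit to make interleukin-17-producing CD8 cells (Tc17 cells). All were then restimulated for 3 h with PMA (100 ng/ml), which activates protein kinase C, and ionomycin (10 μg/ml), which raises intracellular calcium. One library came from mice with floxed Nfatc1 and a Cd4-Cre transgene, in which Cre, driven by the Cd4 promoter, is made in developing T cells and so acts in CD8 cells too. The other came from wild-type mice with no allele named. The sources used here give neither ages nor numbers of mice. With 1 library per genotype there was no replicate, no test across mice was possible, and all intervals below are 95% intervals that cover counting error only.

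The kept barcodes (at least 500 genes and at most 10% mitochondrial counts) numbered 709 in the deficient-labelled library and 1018 in the wild-type-labelled one, and no barcode was shared between them. They held 17898193 and 24452538 unique molecular identifiers (UMIs, each 1 captured transcript molecule), at medians of 21436 and 20905.5 per cell. The transcript of the targeted gene went against the labels: Nfatc1 stood at 136 CPM (UMIs of a gene scaled to a common library total) in the deficient-labelled and 39.8 CPM in the wild-type-labelled library. The sources used here do not name the exons removed, and the kit reads 3′ ends, so tags outside the deleted part check nothing. The libraries are therefore named by their labels, and each direction given depends on them. Both were T cells: all 13 CD8 T-cell markers were detected in each, and Cd8b1 was detected in 96.5% and 96.6% of cells. Marker lists of other cells had summed levels of 1.84 CPM (CD4 T cells), 1.29 CPM (natural killer cells) and 0.670 CPM (myeloid cells) among deficient-labelled cells, and of 3.19, 3.19 and 1.02 CPM for the same lists among wild-type-labelled ones, with Ncr1 and Klrb1c at 0 UMIs in both. The B-cell list summed to 29.4 CPM in deficient-labelled and 20.5 CPM in wild-type-labelled cells, of which Ighm made up 26.8 and 16.8 CPM. The dendritic-cell list summed to 32.2 CPM in deficient-labelled and 45.9 CPM in wild-type-labelled cells (Siglech and Clec9a at 0 UMIs in both), of which Ccr7, which T cells also express, made up 23.6 and 35.7 CPM. The part of other cells in the results was not tested.

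Promoter sequence was at hand for 5 of the 9 genes, and it is shown because these genes are known NF-κB targets. Each stretch runs 5′ to 3′ from 250 bases before to 50 bases after an annotated start, from RefSeq (GRCm38.p6, the same build as mm10). The capitals mark the matches to the κB consensus found on either strand, where overlapping matches run together. For genes with several annotated starts, the one shown was picked after the search as one that holds matches.

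Nfkb2 promoter, chr19:46304487-46304786, plus strand: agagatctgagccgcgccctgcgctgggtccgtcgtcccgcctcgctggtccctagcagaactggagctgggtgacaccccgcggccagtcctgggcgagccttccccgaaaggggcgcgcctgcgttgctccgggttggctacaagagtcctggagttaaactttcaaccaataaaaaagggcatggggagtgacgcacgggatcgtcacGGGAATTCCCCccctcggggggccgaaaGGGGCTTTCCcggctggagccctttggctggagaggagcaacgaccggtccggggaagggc

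Rel promoter, chr11:23770920-23771219, minus strand: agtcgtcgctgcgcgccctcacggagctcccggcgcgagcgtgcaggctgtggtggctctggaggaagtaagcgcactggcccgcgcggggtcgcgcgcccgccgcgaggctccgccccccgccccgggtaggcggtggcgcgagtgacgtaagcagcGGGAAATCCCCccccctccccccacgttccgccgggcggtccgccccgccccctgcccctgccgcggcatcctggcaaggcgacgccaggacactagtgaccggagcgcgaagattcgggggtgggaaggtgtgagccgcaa

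Nfkbia promoter, chr12:55492598-55492897, minus strand: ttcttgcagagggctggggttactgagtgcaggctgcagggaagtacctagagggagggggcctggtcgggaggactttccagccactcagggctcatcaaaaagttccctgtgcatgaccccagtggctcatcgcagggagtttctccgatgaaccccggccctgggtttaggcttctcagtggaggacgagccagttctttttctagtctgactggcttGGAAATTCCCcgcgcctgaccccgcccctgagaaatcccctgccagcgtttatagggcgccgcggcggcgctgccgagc

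Nfkbid promoter, chr7:30422156-30422455, plus strand: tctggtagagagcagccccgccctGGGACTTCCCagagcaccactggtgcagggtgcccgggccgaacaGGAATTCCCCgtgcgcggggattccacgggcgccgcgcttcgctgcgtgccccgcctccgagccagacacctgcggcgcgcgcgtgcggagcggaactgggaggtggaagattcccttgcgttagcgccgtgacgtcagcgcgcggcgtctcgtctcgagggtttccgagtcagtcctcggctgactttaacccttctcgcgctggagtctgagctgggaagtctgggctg

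Tnfaip3 promoter, chr10:19015361-19015660, minus strand: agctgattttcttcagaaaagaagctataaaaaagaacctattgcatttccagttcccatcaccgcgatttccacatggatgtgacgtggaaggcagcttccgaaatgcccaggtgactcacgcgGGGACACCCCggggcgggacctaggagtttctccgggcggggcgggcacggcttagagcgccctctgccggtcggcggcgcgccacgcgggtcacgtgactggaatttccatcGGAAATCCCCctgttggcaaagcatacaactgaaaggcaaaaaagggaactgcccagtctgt

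A match to the κB consensus was found in 7 of the 10 annotated promoters of these 5 genes, whereas 4.51% of 32851 promoters of the same length held one. Each of the 5 genes had a match in at least 1 promoter, as did 5.14% of 27025 genes. Some Nfkb2 promoters overlap, so the same match counts in more than 1 of them. The Nfkbia match starts 29 bases before the annotated start, and the Tnfaip3 match nearer the start lies 12 bases before it. In Rel, 2 overlapping matches start 92 and 91 bases before the start, and in Nfkb2 the first pair lies 39 and 38 bases before it. These are matches of letters and no measurement of binding. In mm10, Nfkb1 lies on chromosome 3 (135584655 to 135691547), Relb on chromosome 7 (19606217 to 19629438) and Nfkbiz on chromosome 16 (55811375 to 55838899), all on the minus strand.

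Between the libraries, Map3k8 stood far apart from the other 8 genes. In the deficient-labelled library it was 5.13-fold higher, while Rel was 1.68-fold and Nfkbid 1.55-fold higher and the others lay between 0.903-fold and 1.36-fold. By the size rule used throughout (a level of 20 CPM or more on one side and a gap of 2-fold or more after adding a pseudocount of 1 CPM), Map3k8 was the 1 gene of the 9 past 2-fold. Of the 5584 genes reaching 20 CPM, 4.35% were past 2-fold in either direction and 2.27% were past it and higher. Map3k8 reached 20 CPM in the deficient-labelled library alone. The CPM ratio was above 1 for 8 of the 9, and for 54.7% of all genes reaching 20 CPM. The median log2 ratio of the 9 was 0.34, beside 0.03 over all genes reaching 20 CPM.

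**Figure D1:**
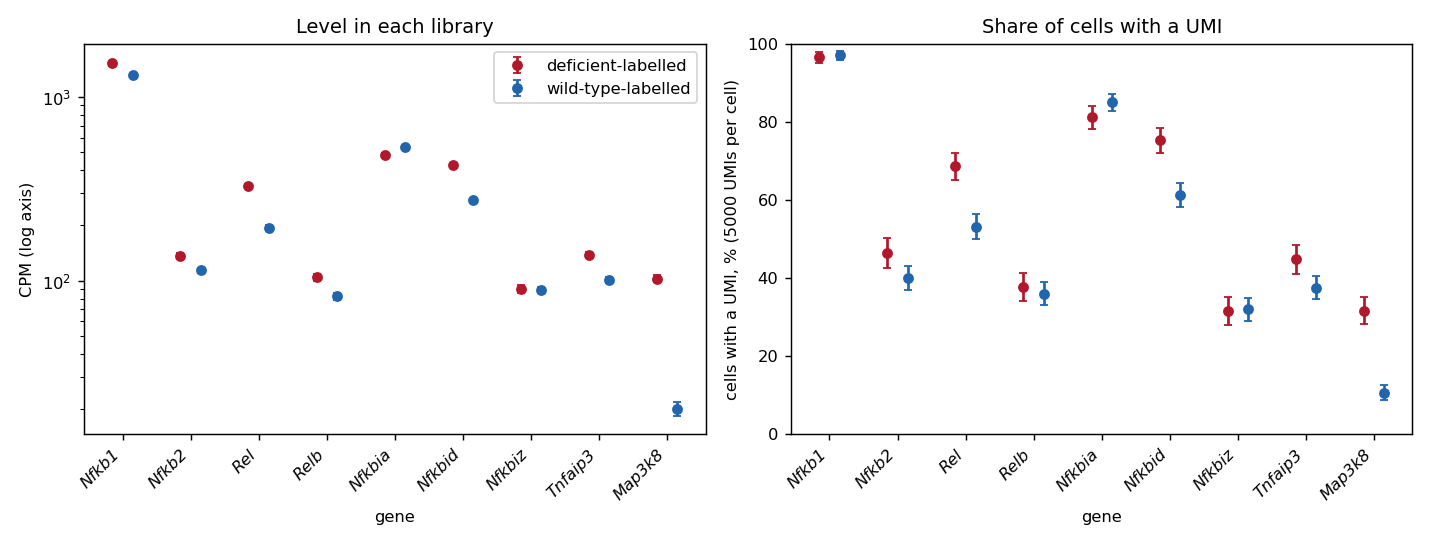
Left, the CPM of each gene (log axis) in the deficient-labelled (red) and wild-type-labelled (blue) library, with exact Poisson intervals; right, the percentage of cells with at least 1 UMI after each cell was thinned to 5000 UMIs, with exact binomial intervals. Map3k8 is the widest gap in both, at 102 against 19.96 CPM and 31.7% against 10.7% of cells.

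The subunit genes differed by unequal amounts. Nfkb1, which encodes p105 and its processed form p50, stood at 1539 CPM in the deficient-labelled and 1315 CPM in the wild-type-labelled library, a ratio of 1.17 (counting interval 1.15 to 1.19). A UMI of it was present in 96.7% and 97.2% of cells at a common depth of 5000 UMIs, so nearly every cell of both libraries carried it. Nfkb2, encoding p100 and p52 of the non-canonical pathway, stood at 136 and 114 CPM (ratio 1.20, 1.13 to 1.26).

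Rel encodes c-Rel, the subunit most closely tied to lymphocyte activation and Il2 transcription. It stood at 327 CPM in the deficient-labelled and 194 CPM in the wild-type-labelled library (ratio 1.68, 1.62 to 1.75), and its UMIs were found in 68.8% (65.2 to 72.2) and 53.2% (50.05 to 56.3) of cells. Its log2 ratio of 0.75 was larger in size, whatever its sign, than that of 92.5% of the genes reaching 20 CPM. Relb, the partner of p52, stood at 104 and 82.1 CPM (ratio 1.27, 1.19 to 1.35), and its shares of cells, 37.7% and 36.1%, had overlapping intervals.

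The 3 inhibitor-family genes went in different directions. Nfkbia encodes IκBα, the inhibitor that is degraded on stimulation and made anew, and it was the 1 gene with a ratio below 1: 484 CPM in the deficient-labelled and 535 CPM in the wild-type-labelled library (ratio 0.903, 0.879 to 0.928). Nfkbid encodes IκBNS, a nuclear IκB protein that acts with p50 at Il2 and other genes. It stood at 424 and 273 CPM (ratio 1.55, 1.501 to 1.60), with UMIs in 75.4% (72.0 to 78.5) and 61.4% (58.3 to 64.4) of cells. Nfkbiz encodes IκBζ, a nuclear IκB protein known in mouse T cells for a role in interleukin-17 production. It was level between the libraries at 90.6 and 88.9 CPM (ratio 1.02, 0.954 to 1.09), and its log2 ratio changed sign with the processing (-0.12 to 0.11 over the alternatives tried).

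Tnfaip3 encodes A20, the ubiquitin-editing enzyme that shuts off NF-κB signalling, and stood at 138 and 101 CPM (ratio 1.36, 1.29 to 1.44). Map3k8 encodes the kinase TPL2, which p105 holds inactive in unstimulated cells and which drives the MEK and ERK kinases once released. It stood at 102 CPM (1834 UMIs) in the deficient-labelled and 19.96 CPM in the wild-type-labelled library (488 UMIs), which makes a ratio of 5.13 (4.64 to 5.69). Its log2 ratio of 2.30 was larger in size, whatever its sign, than that of 99.5% of genes reaching 20 CPM. The 2 libraries thus differed far more in Map3k8 than in its binding partner Nfkb1.

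Map3k8 also differed in the share of cells that carried the transcript. At 5000 UMIs per cell, 31.7% (28.2 to 35.3) of the 698 cells from the deficient-labelled library had a UMI, against 10.7% (8.82 to 12.7) of the 1004 from the wild-type-labelled one, and without thinning the shares were 61.6% and 24.8%. At least 3 UMIs were present in 41 deficient-labelled cells (5.87%) and in 5 wild-type-labelled cells (0.498%). No kind of cell that should lack these genes was found, so the share that free RNA alone would give could not be measured.

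Map3k8 (chromosome 18, 4331327 to 4353015, mm10, minus strand) lies on the same chromosome as Nfatc1 (80606205 to 80713071), near the opposite end. Of the genes reaching 20 CPM, its nearest neighbour Mtpap, whose start lies 44.3 kb away, stood at 51.4 and 47.2 CPM (ratio 1.09). The next genes, Svil (ratio 0.924), Cul2 (0.814), Crem (0.574) and Zeb1 (1.01), were all within 2-fold. Over the 164 chromosome 18 genes reaching 20 CPM the median log2 ratio was 0.06, and 4.88% of them were past 2-fold. In the annotation used here, Map3k8 overlaps no other gene. Whether reads of other genes were counted for it was not tested. Among the members, only Nfkb1 (Gm43430, same strand) and Nfkb2 (AC114539.1 and Psd, opposite strand) overlap other annotated genes. Psd was at 1.29 and 1.47 CPM, and the other overlapping genes were not matched to a row.

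The cells were then split by the cytokines they carried. A cell counted as a producer of Il17a, Ifng, Il2 or Il17f with at least 5 UMIs of that gene after thinning to 5000 UMIs, which left out 11 deficient-labelled and 14 wild-type-labelled cells. Below that number a cell counted as lacking the gene. The 4 genes gave 8 classes that do not overlap. The largest class differed: cells with Ifng and Il2 but no Il17a made up 34.4% of the deficient-labelled library (240 cells) and 2.49% (25 cells) of the wild-type-labelled one. Cells with Il17a and Il2 but no Ifng made up 13.2% (92 cells) and 36.9% (370 cells). Cells with Il17a and neither Ifng nor Il2 ("Il17a only") numbered 42 and 211, those with Il17f and neither Il17a nor Ifng ("Il17f only") 94 and 154, those with Il2 alone of the 4 ("Il2 only") 93 and 79, and those with none 73 and 96. Levels were compared between the libraries only in these classes of at least 40 cells on both sides.

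The Map3k8 difference was present within each of the 5 classes compared, which share cutoffs but not cytokine output. Cytokine genes took 7.27% of all UMIs in deficient-labelled Il2 only cells and 2.71% in their wild-type-labelled counterparts. For Il17f only cells these shares were 5.56% and 2.26%, and for cells with none of the 4, 2.95% and 0.537%. They were nearer in Il17a and Il2 producers (7.64% and 6.21%) and Il17a only cells (3.87% and 2.83%). The part of this output in the Map3k8 ratios was not tested. In Il17a and Il2 producers Map3k8 stood at 138 CPM in deficient-labelled and 18.4 CPM in wild-type-labelled cells, a ratio of 7.47 (6.16 to 9.08). In Il2 only cells it stood at 149 and 16.4 CPM (9.07, 5.94 to 14.5), in Il17a only cells at 96.99 and 13.3 CPM (7.30, 5.46 to 9.79), and in Il17f only cells at 131 and 21.0 CPM (6.27, 4.82 to 8.25). In cells with none of the 4 cytokines it was closer, at 53.9 and 32.5 CPM (1.66, 1.16 to 2.40). Map3k8 was thus past 2-fold in 4 of 5 classes, where 5.25% of all genes were past 2-fold and higher in Il17a and Il2 producers, 4.69% in Il17a only, 4.24% in Il17f only, 5.24% in Il2 only cells and 3.26% in cells with none. The classes with fewer than 40 cells in a library are given as values: Il17a and Ifng cells stood at 119 CPM (35 deficient-labelled cells) and 20.9 CPM (47 wild-type-labelled cells), Ifng and Il2 cells stood at 78.1 CPM (240 deficient-labelled cells) and 27.4 CPM (25 wild-type-labelled cells), and Ifng only cells stood at 72.5 CPM (29 deficient-labelled cells) and 83.2 CPM (22 wild-type-labelled cells), with overlapping intervals of 54.5 to 94.6 and 58.6 to 115.

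Rel had a ratio above 1 in each of the 5 classes. It was 2.502-fold higher (2.24 to 2.79) in Il17f only cells, at 401 CPM in deficient-labelled and 160 CPM in wild-type-labelled cells, the 1 class in which it passed 2-fold. Il17f only cells were not split by Il2, and the part of Il2 in the Rel ratio of that class was not tested. In Il2 only cells Rel stood at 406 and 204 CPM (1.99, 1.74 to 2.28), just short of the rule. In cells with none of the 4 cytokines it stood at 216 and 160 CPM (1.35, 1.14 to 1.59). Nfkbid in Il2 only cells was also just short, at 585 and 296 CPM (1.98, 1.77 to 2.22), and it was level in Il17a only cells at 157 and 162 CPM. Both values in Il2 only cells passed the rule under some other settings. The classes with fewer than 40 cells in a library did not share the direction of Rel throughout. In Ifng only cells Rel stood at 223 CPM (29 deficient-labelled cells) and 382 CPM (22 wild-type-labelled cells), a ratio of 0.583 (0.468 to 0.726). In Ifng and Il2 cells it stood at 309.5 and 291 CPM (1.06, 0.910 to 1.25), and in Il17a and Ifng cells at 291 and 250.4 CPM (1.16, 1.01 to 1.34).

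Nfkbia had a ratio below 1 in all 5 classes, between 0.576 and 0.959. The widest was in Il17a only cells, at 232 CPM in deficient-labelled and 403 CPM in wild-type-labelled cells (0.576, 0.505 to 0.654), followed by Il2 only cells at 465 and 721 CPM (0.646, 0.591 to 0.706). Nfkbiz had a ratio below 1 in 4 of 5 classes, the exception being Il17f only cells (1.20, 1.002 to 1.44). Nfkb2, Relb and Tnfaip3 had ratios from 1.01 to 1.48 in the 5 classes, and Nfkb1 from 0.936 to 1.36.

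When the 8 classes were given the same weight of UMIs in both libraries, Map3k8 kept a ratio of 4.98 (111 and 22.2 CPM). The ratio of Rel was then 1.54, that of Nfkbid 1.25, that of Tnfaip3 1.09 and that of Nfkb1 1.08. Nfkbia was at 0.770 and Nfkbiz at 0.819. At that equal mix Map3k8 was again the 1 gene past 2-fold, where 2.57% of all genes were past it and higher, and the ratios of Nfkbid and Tnfaip3 were nearer 1 than over all cells. The median log2 ratio of the 9 at equal mix was 0.14, beside 0.10 over all genes, and 7 of the 9 had a ratio above 1. The mix included the classes with fewer than 40 cells in a library, which limits these ratios. Among them, Ifng and Il2 cells held 38.0% of deficient-labelled UMIs but 2.40% of wild-type-labelled ones, the latter from 25 cells.

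**Figure D2:**
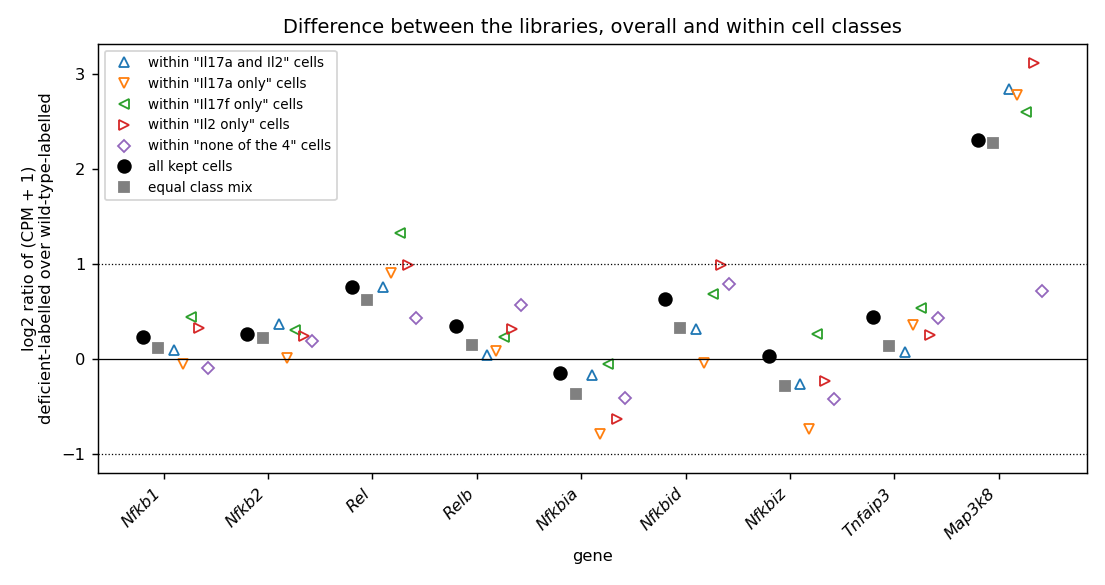
The log2 ratio of (CPM + 1), deficient-labelled over wild-type-labelled, for each gene over all kept cells (black circles), at equal class mix (grey squares) and within each of the 5 classes with at least 40 cells of both libraries (open symbols); dotted lines mark 2-fold. Map3k8 lies above 2-fold in all but the cells with none of the 4 cytokines, and in these 5 classes Rel is above 0 and Nfkbia is below 0.

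Within each library, most of the genes were higher in Il2 producers. Of the 9 genes, 9 in the deficient-labelled library and 8 in the wild-type-labelled one had a higher level in Il2 producers than in other cells, against 35.2% and 40% of all genes. The medians of their log2 ratios were 0.63 and 0.60, beside -0.12 and -0.07 over all genes. Past 2-fold higher were 0 of the 9 in the deficient-labelled library (0.465% of all genes) and 2, Nfkbid and Tnfaip3, in the wild-type-labelled library (0.622% of all genes). Il2 producers were 526 of 698 and 590 of 1004 cells, with median UMIs of 22328 and 21253.5, against 19454 and 20619.5 in the other cells of the same libraries. A list of 20 restimulation genes was higher in Il2 producers too: its summed level was 3831 CPM in producers and 2726 CPM in other cells of the deficient-labelled library, and 3197 and 2467 CPM in the wild-type-labelled one. Its part in these ratios was not tested.

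Nfkbid stood at 476 CPM in Il2 producers and 239 CPM in other cells of the deficient-labelled library (1.99-fold, 1.86 to 2.13), and at 352 and 174 CPM in the wild-type-labelled library (2.02-fold, 1.91 to 2.13). Tnfaip3 stood at 151 and 89.9 CPM in the deficient-labelled library (1.68-fold, 1.503 to 1.89) and at 130 and 64.0 CPM in the wild-type-labelled one (2.03-fold, 1.86 to 2.23). Rel was 1.83-fold (1.70 to 1.98) and 1.94-fold (1.82 to 2.06) higher in Il2 producers of these libraries. Nfkbiz (1.75-fold and 1.73-fold) and Nfkb1 (1.55-fold and 1.51-fold) were also higher there by like amounts in both libraries, and Relb differed least (1.13-fold and 1.12-fold). Map3k8 differed between the libraries in this respect: it was 1.498-fold higher (1.32 to 1.70) in Il2 producers of the deficient-labelled library and level in the wild-type-labelled one, at 19.5 CPM in producers and 20.2 CPM in other cells (0.963-fold, 0.802 to 1.16).

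The relation to Il2 was graded for most of the genes. Cells were put in 5 tiers by Il2 UMIs per 5000, a split chosen after the values above were seen: 0, 1 to 4, 5 to 19, 20 to 59, and 60 or more, with 63, 109, 118, 193 and 215 deficient-labelled cells and 194, 220, 172, 182 and 236 wild-type-labelled cells. In the deficient-labelled library 5 of the 9 genes were higher at each of the 4 steps, and in the wild-type-labelled library 7 were, against 2.54% and 4.84% of all genes. These counts go by the values alone, and some steps had overlapping intervals. Deficient-labelled Nfkbid stood at 237 CPM (213 to 264) with 0 Il2 UMIs and 241 CPM (222 to 261) with 1 to 4, and Nfkbiz at 54.1 CPM (42.9 to 67.4) and 58.9 CPM (49.7 to 69.3). The top tier was at least 2-fold above the cells with 0 Il2 UMIs for 3 and 4 of the 9, against 1.26% and 1.89% of all genes. Over the 5 tiers Nfkbid stood at 237, 241, 398, 438 and 551 CPM in deficient-labelled cells and at 159, 191, 249, 325 and 449 CPM in wild-type-labelled cells. Rel stood at 204, 195, 332, 354 and 390 CPM in the deficient-labelled and at 113, 144, 172, 219 and 325 CPM in the wild-type-labelled library, the highest wild-type-labelled tier being close to the middle deficient-labelled one. Tnfaip3 stood at 75.1, 98.8, 128, 148.1 and 166 CPM, and at 55.9, 73.1, 104, 115 and 162 CPM, so the libraries met in the top tier. Map3k8 stood at 77.8, 71.5, 95.6, 116 and 114 CPM in the deficient-labelled library, while all 5 wild-type-labelled tiers lay between 15.1 and 22.0 CPM.

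**Figure D3:**
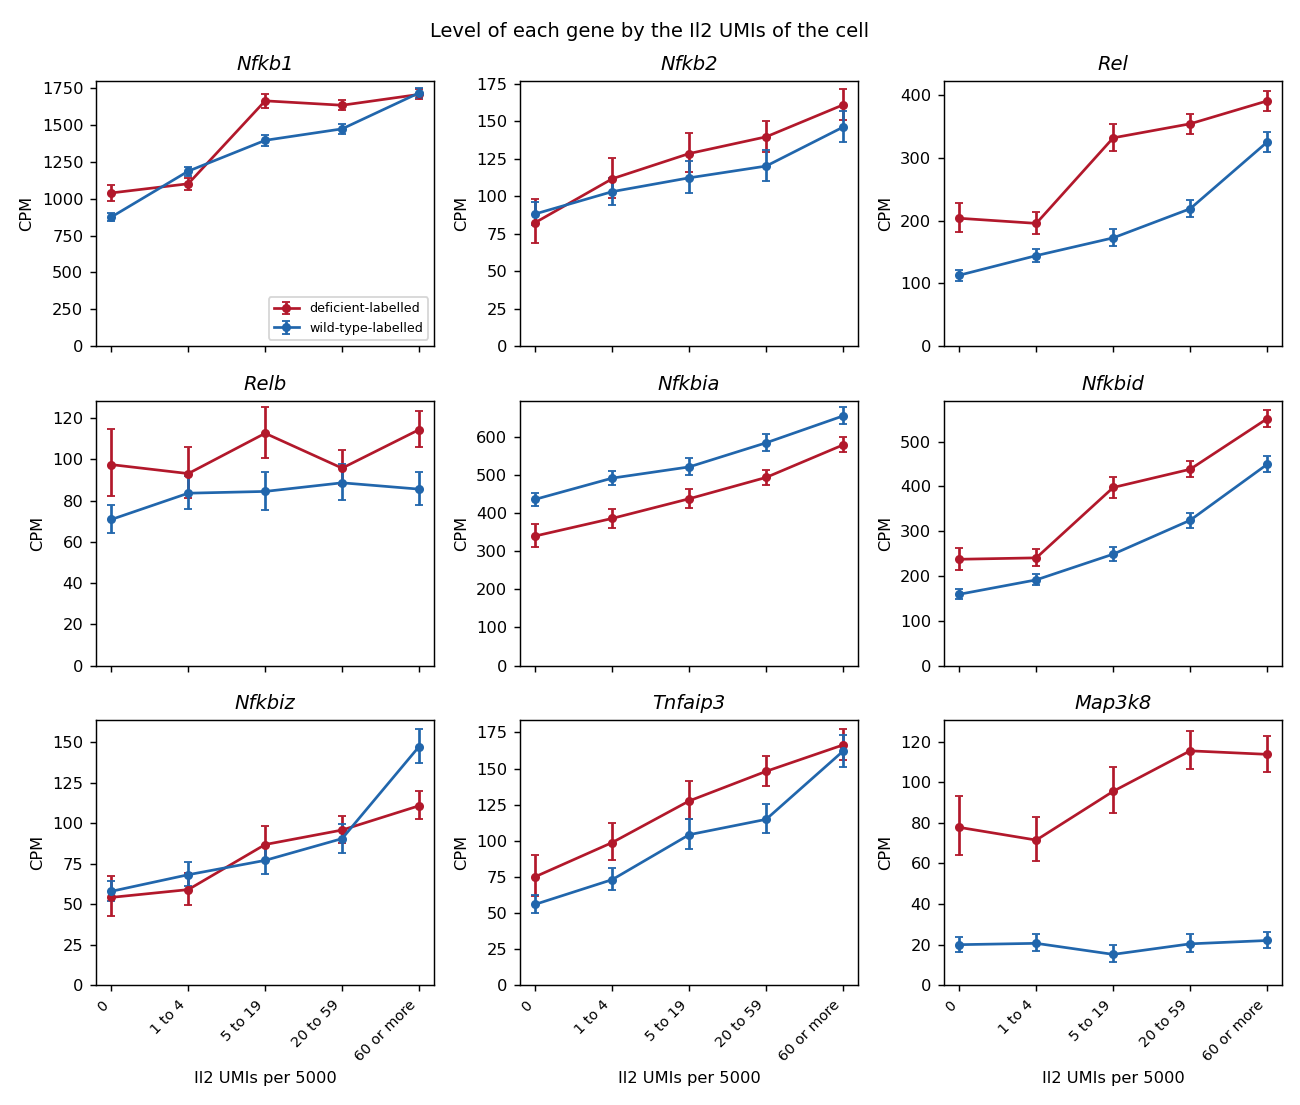
CPM of each gene (y axis from 0) in cells grouped by their Il2 UMIs per 5000 (x axis), in the deficient-labelled (red) and wild-type-labelled (blue) library, with exact Poisson intervals. Nfkb2, Nfkbia, Nfkbid, Nfkbiz and Tnfaip3 have a higher value at each step in both libraries, though some steps have overlapping intervals. Relb is nearly flat, and Map3k8 stays between 15.1 and 22.0 CPM in the wild-type-labelled library.

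Cells with Il17a but neither Il2 nor Ifng had the lowest levels of most of these genes. Each library had 6 classes of at least 40 cells, and the sixth was not the same: Ifng and Il2 cells in the deficient-labelled library (240 cells, against 25 in the other) and Il17a and Ifng cells in the wild-type-labelled one (47 cells, against 35). Among its own 6 classes, Il17a only cells were lowest for 8 of the 9 genes in the deficient-labelled and for 8 in the wild-type-labelled library, against 19.5% and 14.6% of all genes. The exceptions, lowest in cells with none of the 4 cytokines, were Map3k8 among deficient-labelled cells and Nfkbid among wild-type-labelled ones. Nfkbiz stood at 28.5 CPM (19.5 to 40.2) in deficient-labelled Il17a only cells, against 76.8 CPM in the next lowest class, and at 48.2 CPM (43.1 to 53.9) in wild-type-labelled ones, against 83.8 CPM. Tnfaip3 stood at 66.7 CPM (52.5 to 83.7) and 52.1 CPM (46.7 to 57.9) in the Il17a only cells of these libraries, with next lowest values of 119 and 88.1 CPM. In each library, the intervals of Il17a only cells and the next lowest class were apart for 5 of these 8 genes. They overlapped for Nfkb2 and Relb in both libraries. They also overlapped for Rel in the deficient-labelled library (192 and 216 CPM) and for Map3k8 in the wild-type-labelled one (13.3 and 16.4 CPM).

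The restimulation list, which holds Fos, Egr1 and Nr4a1, also had its lowest summed level in Il17a only cells, at 1882 CPM in the deficient-labelled and 2043 CPM in the wild-type-labelled library, where the other classes of at least 40 cells lay between 3285 and 4017 CPM and between 2878 and 3809 CPM. In cells with none of the 4 cytokines, the next lowest class for Nfkb1, Nfkb2, Rel and Tnfaip3 in both libraries, it stood at 3662 and 3536 CPM. The part of the list in the low levels of these genes was not tested.

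At the upper end, Il2 only cells were highest of the 6 classes of their library for 7 genes in the deficient-labelled and 6 genes in the wild-type-labelled library, against 20.2% and 23.0% of all genes. Among these genes, Il2 only cells were apart from the next class only for Nfkb1 and Nfkbid in the deficient-labelled and for Nfkbia and Tnfaip3 in the wild-type-labelled library. Nfkb1 reached 2029 CPM (1968 to 2091) there in the deficient-labelled library, apart from the next class at 1758 CPM, and 1620 CPM (1554 to 1688) in the wild-type-labelled library, overlapping the next at 1553 CPM. Rel was highest in cells with Il17a and Il2 in both libraries, at 430 CPM (404 to 458) and 255 CPM (245 to 266), but the next class overlapped it in both. The ratio of the highest to the lowest class was widest for Nfkbid (3.74) in the deficient-labelled and Tnfaip3 (2.94) in the wild-type-labelled library, and narrowest for Relb in both (1.505 and 1.27).

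**Figure D4:**
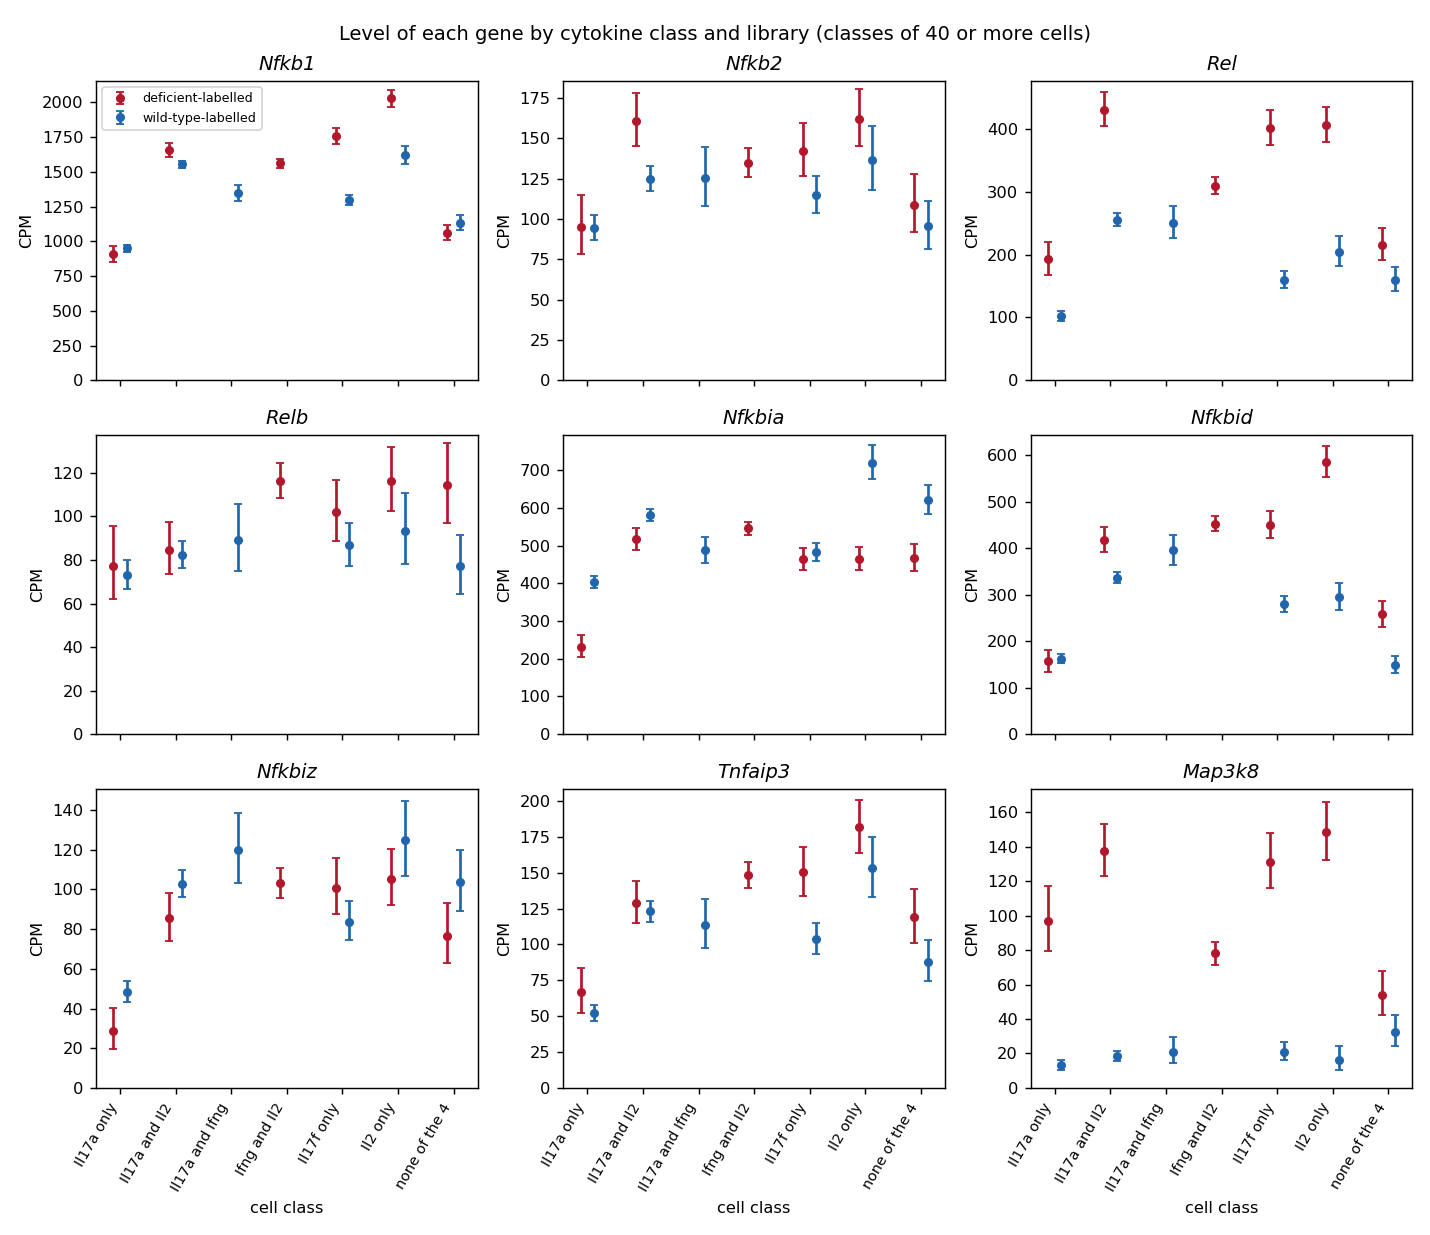
CPM of each gene (y axis from 0) in every cytokine class with at least 40 cells, in the deficient-labelled (red) and wild-type-labelled (blue) library, with exact Poisson intervals; a class with fewer cells in a library has no point there. Il17a only cells are at or next to the bottom in both libraries, except for Map3k8 in the deficient-labelled one, and the Map3k8 points of the libraries are separate in every class that both libraries fill.

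The same split was made for Il17a, Il17f and Ifng. In Il17a producers 3 of the 9 genes in the deficient-labelled library and 2 in the wild-type-labelled one had a higher level than in other cells, against 59.1% and 39.8% of all genes, and 0 passed 2-fold in either (3.06% and 0.732% of all genes). Nfkbiz stood at 69.4 CPM in Il17a producers and 98.4 CPM in other cells of the deficient-labelled library (0.705-fold, 0.624 to 0.796) and at 83.2 and 99.9 CPM in the wild-type-labelled library (0.833-fold, 0.762 to 0.911). Nfkbiz, the gene known for a role in interleukin-17 production, was thus lower in Il17a producers as a whole in both libraries. By class it stood at 48.2 CPM in Il17a only, 103 CPM in Il17a and Il2 and 120 CPM in Il17a and Ifng cells of the wild-type-labelled library. In the deficient-labelled library these classes stood at 28.5, 85.6 and 75.1 CPM. The restimulation list was lower in Il17a producers too, at 3115 against 3763 CPM in the deficient-labelled and 2646 against 3383 CPM in the wild-type-labelled library. Its part was not tested. Il17f producers gave 3 and 2 genes above 1, against 67.9% and 43.0% of all genes, and 0 past 2-fold (1.87% and 1.06%). For them the list stood at 3355 against 3755 CPM in the deficient-labelled and 2687 against 3544 CPM in the wild-type-labelled library, and its part was likewise not tested.

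In Ifng producers, 5 genes of the deficient-labelled and 9 of the wild-type-labelled library had a higher level than in other cells, against 17.1% and 29.7% of all genes. Again 0 passed 2-fold in either, beside 3.19% and 2.11% of all genes. Rel stood at 299 CPM in Ifng producers and 356 CPM in other cells of the deficient-labelled library (0.841-fold, 0.799 to 0.886), but at 282 and 184 CPM in the wild-type-labelled library (1.54-fold, 1.42 to 1.66). Nfkbid stood at 441 and 407 CPM in the deficient-labelled and at 407 and 258 CPM in the wild-type-labelled library. Ifng producers were 304 deficient-labelled and 94 wild-type-labelled cells, with median UMIs of 24341 and 24624.5, against 19491 and 20835 in the other cells. The restimulation list was higher in Ifng producers too, at 3813 against 3364 CPM in the deficient-labelled and 3682 against 2780 CPM in the wild-type-labelled library. Its part in these ratios was not tested.

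Across cells most of the genes varied more than counting alone gives. At 5000 UMIs per cell the variance of Nfkb1 was 4.39 times its mean in the deficient-labelled and 4.42 times in the wild-type-labelled library, where counting alone gives 1. That ratio was 1.18 and 1.17 for Nfkb2 and 1.19 and 1.04 for Relb, near counting error. It depends on the mean, which was 8.02 and 7.06 UMIs per cell for Nfkb1 but 0.521 and 0.455 for Relb, so it does not rank the genes. Map3k8 had ratios of 1.99 and 1.39 at means of 0.563 and 0.131, and Nfkbiz 1.70 and 1.69 at 0.494 and 0.488. The median cell of each library carried UMIs of 5 of the 9 genes, and at least 7 were carried by 19.5% of cells in the deficient-labelled and by 9.76% in the wild-type-labelled library. Spearman correlations between pairs of genes over cells had medians of 0.11 and 0.10 over 36 pairs, which in counts this sparse is no finding.

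Over the 12 points given by the 6 classes of each library, the genes followed one another to unlike degrees. The points are not matched: 5 classes stand in both libraries, Ifng and Il2 cells in the deficient-labelled one alone and Il17a and Ifng cells in the wild-type-labelled one alone. These correlations describe points that share libraries, and Pearson's r is on log2 of (CPM + 1). Nfkb1, Nfkb2, Rel, Nfkbid and Tnfaip3 followed one another (r between 0.81 and 0.94), and Nfkbia and Nfkbiz followed each other (r = 0.89) but Nfkbia little followed Rel (r = 0.15). These sets were not separate: Nfkbiz had r of 0.77 with Tnfaip3, 0.74 with Nfkb1 and 0.43 with Rel. Relb had r of 0.78 with Tnfaip3, 0.71 with Nfkbid and 0.22 with Nfkbia. Map3k8 had its highest r with Rel (0.76) among the members and was at -0.34 with Nfkbia. Of 5321 other genes averaging at least 20 CPM, the 3 most like Map3k8 were Gpr174 (r = 0.98), Orai1 (0.97) and Ppp2r1b (0.97).

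The genes most like Rel were Slc41a1 (0.95), Ttc37 (0.94) and Nr4a3 (0.93), those most like Nfkbia were Ifrd1 (0.95), Ier5 (0.90) and Ppp4r1 (0.90), and those most like Nfkbiz were Pim1 (0.97), Kdm6b (0.96) and Ifrd1 (0.95). Nfkbid was most like Etf1 (0.96), Slc41a1 (0.94) and Nfkbib (0.92), and Tnfaip3 was most like Arih2 (0.97), Scaf4 (0.96) and Maml2 (0.94). For Nfkb1 they were Ipo5 (0.97), Nop58 (0.96) and Psmd11 (0.96), for Nfkb2 Fam210a (0.94), 2700038G22Rik (0.93) and Slc41a1 (0.93), and for Relb Mettl25 (0.91), Otud4 (0.90) and Mcl1 (0.89).

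Among other genes of the pathway, counts past 2-fold are given beside the 4.35% of all genes reaching 20 CPM that were past it in either direction (2.27% higher and 2.08% lower). Of 5 further subunit and IκB genes, 3 reached 20 CPM, all with ratios above 1. The genes under 20 CPM in both libraries had ratios below 1. Bcl3 stood at 7.04 CPM in the deficient-labelled and 17.1 CPM in the wild-type-labelled library (0.411-fold, 0.334 to 0.503), and Nfkbil1 at 12.6 and 14.5 CPM (0.870-fold, 0.733 to 1.03). Nfkbie, encoding IκBε, stood at 25.3 CPM in the deficient-labelled and 11.8 CPM in the wild-type-labelled library (2.14-fold, 1.84 to 2.49). Of those reaching 20 CPM, it alone passed 2-fold, and it reached 20 CPM in the deficient-labelled library alone. Nfkbib, encoding IκBβ, stood at 291 and 201 CPM and Rela, encoding p65, at 116 and 90.7 CPM. Of 21 genes that carry signals to the IκB kinase, 15 reached 20 CPM and 0 passed 2-fold. The highest ratios among them were those of Traf6 (67.4 and 46.5 CPM) and Cd28 (43.4 and 30.3 CPM), and the lowest those of Birc2 (20.002 and 25.8 CPM) and Prkcq (35.1 and 44.9 CPM).

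Of 17 negative regulators, 14 reached 20 CPM and 1 was past 2-fold: Tnip1, encoding the A20-binding protein ABIN1, stood at 43.7 CPM in the deficient-labelled and 90.4 CPM in the wild-type-labelled library (0.484-fold, 0.445 to 0.525), while Tnip3, encoding a related protein, stood at 83.5 and 49.6 CPM. The other ends of that list were Rnf11 (130 and 73.0 CPM) and Traf3 (105 and 133 CPM). Of 30 genes known as NF-κB targets, 24 reached 20 CPM, 2 were past 2-fold higher and 3 past 2-fold lower. The chemokine genes Ccl3 (9.002-fold) and Ccl4 (5.56-fold) were higher, and Csf2 (26.5 and 75.5 CPM), Irf1 (13.6 and 35.0 CPM) and Ltb (168 and 375 CPM) were lower in the deficient-labelled library. Of the 1846 Csf2 UMIs in the wild-type-labelled library, 924 lay in 1 cell. Without the cell holding the most UMIs of the gene in each library, an alternative chosen after values were seen, Csf2 stood at 17.2 and 37.8 CPM (ratio 0.455). The other pathway genes past 2-fold and the 9 genes stayed on their side of 2-fold when treated in the same way, each gene without its own top cells.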

How the data were processed

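Per the labels' protocols, a 10x Genomics 3′ kit (3.1) was used. The authors deposited unnormalised UMI counts for each gene and barcode, with Cell Ranger 7.0.0 named in the file headers and mm10 in the submitters' processing notes. The sources used here do not state how intronic reads were handled. The 12 multiplexing tags were left out of totals. UMIs were summed over kept cells and divided by the total of the library or class (CPM), so a gene's CPM also moves when other genes take a larger share. A level of 3 counts, the limit a count of 0 allows, is 0.168 CPM in the deficient-labelled and 0.123 CPM in the wild-type-labelled library. Intervals are exact Poisson for CPM, Clopper-Pearson for shares and conditional binomial for ratios, at 95%. They treat UMIs and cells as independent and leave out the spread between cells, mice and cultures. Log2 ratios carry a pseudocount of 1 CPM, folds carry none. With 1 library per genotype no p-value was computed. Cells were thinned without replacement to 5000 UMIs for classes and shares. Scrublet in scanpy 1.11.5 (expected rate 5%) called 6 deficient-labelled and 5 wild-type-labelled doublets, kept except in an alternative. Coordinates and overlaps come from GENCODE M21 (mm10), promoters from RefSeq. The κB consensus was searched on both strands.

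The 9 genes and the gene lists were chosen with earlier results of these data known. Named besides the 9 are Nfatc1, the cytokine genes that define classes, marker genes, Map3k8's neighbours, per pathway list the genes past 2-fold and the 2 highest and 2 lowest ratios, and the 3 genes most correlated with each of the 9. The Il2 tiers, the neighbours and the order of classes were chosen after values were seen. The scripts were tested on simulated data. Alternatives were edgeR 4.0.16 TMM scaling (R 4.3.3), other totals, pseudocounts, floors, barcode and depth filters, per-cell means, thinning depths and cutoffs. Tables and intervals were computed with SciPy 1.17.1, pandas 2.3.3 and NumPy 2.4.6 in Python 3.11.15.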

Additional observations from a re-analysis of the deposited data

Results flagged for a closer look

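In 6 of 36 pairs of a gene and a split (9 genes, 4 cytokines) the cytokine split gave ratios on opposite sides of 1 in the 2 libraries, with neither counting interval reaching 1; the difference itself was not tested, as each genotype has 1 library. Between Ifng producers and other cells, Map3k8 had a ratio of 0.693 (0.631 to 0.762) in the deficient-labelled and 1.82 (1.42 to 2.30) in the wild-type-labelled library. The wild-type-labelled producers held 85 Map3k8 UMIs, 37 of them in the 22 Ifng only cells (83.2 CPM). Il17a and Ifng cells and Ifng and Il2 cells of that library stood at 20.9 and 27.4 CPM. In the same split Rel, encoding c-Rel, had ratios of 0.841 (0.799 to 0.886) and 1.54 (1.42 to 1.66), and Nfkb1 had 0.945 (0.923 to 0.968) and 1.09 (1.05 to 1.13). Between Il17a producers and other cells, Map3k8 had 1.29 (1.17 to 1.43) in the deficient-labelled and 0.620 (0.516 to 0.746) in the wild-type-labelled library. Between Il17f producers and other cells, Map3k8 had 1.51 (1.37 to 1.65) and 0.591 (0.487 to 0.720), and Rel had 1.12 (1.06 to 1.18) and 0.919 (0.859 to 0.984). Map3k8 makes up 3 of the 6. Ratios of this kind were found for 3 of the 9 genes, beside 2.98% of all genes, in the Ifng split, for 1, beside 3.16%, in the Il17a split, for 2, beside 4.55%, in the Il17f split, and for 0, beside 1.97%, in the Il2 split. Ifng producers numbered 304 among the 698 cells from the deficient-labelled library and 94 among the 1004 from the other. Of these producers, 240 and 25 were Ifng and Il2 cells. The cells they were set against held 42 and 211 Il17a only cells. The part of this unlike class mix in the opposite ratios was not tested.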

How the results depend on the processing

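No paired analysis was possible because each genotype has 1 library, and for the same reason no replicate could be left out. Map3k8 stayed past 2-fold between the libraries under every scaling, filter, pseudocount and floor tried (log2 ratio 2.06 to 2.39), and no other gene of the 9 passed; the same held without the cell richest in each gene (2.34). The median log2 ratio of the 9 was 0.21 with totals taken without ribosomal protein and mitochondrial genes. That scaling moved the median of all genes to -0.10 and the calls over all genes to 112 higher and 187 lower, against 127 and 116; totals without cytokine and chemokine genes moved that median to 0.12. Over all genes, 437, 155 and 619 passed 2-fold at a floor of 5 CPM, 50 CPM and none, against 243. The log2 ratio of Nfkbiz ran from -0.12 to 0.11. The count of genes past 2-fold in Il2 producers, 0 in the deficient-labelled library, was 1 with producers set at 2 UMIs (Tnfaip3), with cells thinned to 10000 UMIs (Tnfaip3) and with totals without cytokine genes (Nfkbid). That count, 2 in the wild-type-labelled library, was 1 at 2 UMIs (Tnfaip3), 1 at 10 UMIs (Nfkbid), 1 at 10000 UMIs (Nfkbid) and 0 with the mean of per-cell CPM. In Ifng producers of the wild-type-labelled library it was 1 (Map3k8) with that mean, against 0. Within classes, 8 calls were made with producers set at 2 UMIs, over 6 classes, against 5 over 5; 6 were made at 10 UMIs, and 7 each with cells thinned to 10000 UMIs, with totals without cytokine genes and with the mean of per-cell CPM. Each of these 5 settings added Rel in Il2 only cells, and some added Nfkbid there. The share of cells with an Nfkb2 UMI, deficient-labelled minus wild-type-labelled, was -0.90 percentage points at 2500 UMIs per cell. The causes were not tested. Genes near 20 CPM, Map3k8 in the wild-type-labelled library among them, average under 1 UMI per cell, so their shares of cells move with depth.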

Other observations

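A split chosen after values were seen set cells with an Nfatc1 UMI (at 5000 UMIs per cell) against cells without one. Cells with a UMI numbered 343 of 698 in the deficient-labelled and 167 of 1004 in the wild-type-labelled library. All 9 genes had a CPM ratio above 1 in both libraries, from 1.02 (Nfkbiz) to 1.26 (Rel) in the deficient-labelled and from 1.04 (Relb) to 1.54 (Map3k8) in the wild-type-labelled library. Of all genes reaching 20 CPM, 56.7% and 51.8% had a ratio above 1 in the 2 libraries. The counting interval spanned 1 in 3 of the 18 ratios, for Nfkbiz in the deficient-labelled and for Nfkb2 and Relb in the wild-type-labelled library. Map3k8 stood at 114 CPM in deficient-labelled cells with and 91.9 CPM in those without an Nfatc1 UMI, and at 28.3 and 18.3 CPM in wild-type-labelled cells. Each deficient-labelled value thus exceeded both wild-type-labelled ones.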
